A study of Rattus norvegicus with 13 samples.

Results

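Adipocyte genes are the genes by which a fat cell is known, and 9 of them were followed here among the 14790 genes measured in rat mammary epithelial cells. The 9 were taken by symbol from the expression table: *Adipoq*, *Plin1*, *Cidec*, *Pparg*, *Lpl*, *Cd36*, *Fabp4*, *Pnpla2* and *Lipe*. Each was found once, and all 9 passed the minimum mean of 1 normalized count. RNA-seq had been run on cells of 13 Wistar-Furth rats, 1 library per rat. Of these, 6 rats were 6 weeks old, within the window of susceptibility to mammary cancer (WOS), and 7 were 10 weeks old, outside WOS. No gene was altered and no treatment separated the ages. Mammary glands were minced and digested with collagenase, and the ductal fragments were kept by centrifugation and a nylon filter, so the libraries are enriched for epithelium but also hold stromal and immune cells. In such bulk samples fewer cells of a type and less RNA per cell cannot be told apart.

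The mammary ducts grow inside a pad of fat. Fat cells differentiate under the nuclear receptor PPARG, take up fatty acids that lipoprotein lipase frees from circulating triglyceride, store them in a lipid droplet coated by perilipin-1, and release them through a chain of lipases. Several of these proteins are not restricted to fat cells: capillary endothelium makes CD36 and FABP4, the secretory epithelium of the gland stores its own fat in droplets coated by perilipin-2, and lipases act in many tissues. The comparison of the ages therefore asked which of the 9 genes differed between 6 and 10 weeks, and which others of the fat cell differed with them.

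Expression was higher at 6 weeks for 2 of the 9 genes, *Adipoq* and *Plin1*, and for 0 of the 9 was it higher at 10 weeks. These calls rest on an adjusted p under 0.05 with limma, Benjamini-Hochberg adjusted over all 14790 genes. By the same rule 16.1% of all genes were called, 8.71% as higher at 6 weeks and 7.39% as higher at 10 weeks. Calls higher at 6 weeks were 54.1% of all calls, and 73.8% when libraries were scaled by their totals without the most abundant gene. The log2 fold change was above 0 for 6 of the 9 genes and below 0 for 3, with a median of 0.41, beside 0.028 over all genes. Log2 fold changes are 6 weeks over 10 weeks on log2(normalized count + 1), a scale that understates changes at low counts. A normalized count is a read count scaled and rounded by the authors, and it is not divided by transcript length, so levels are compared between rats and not between genes.

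**Figure D1:**
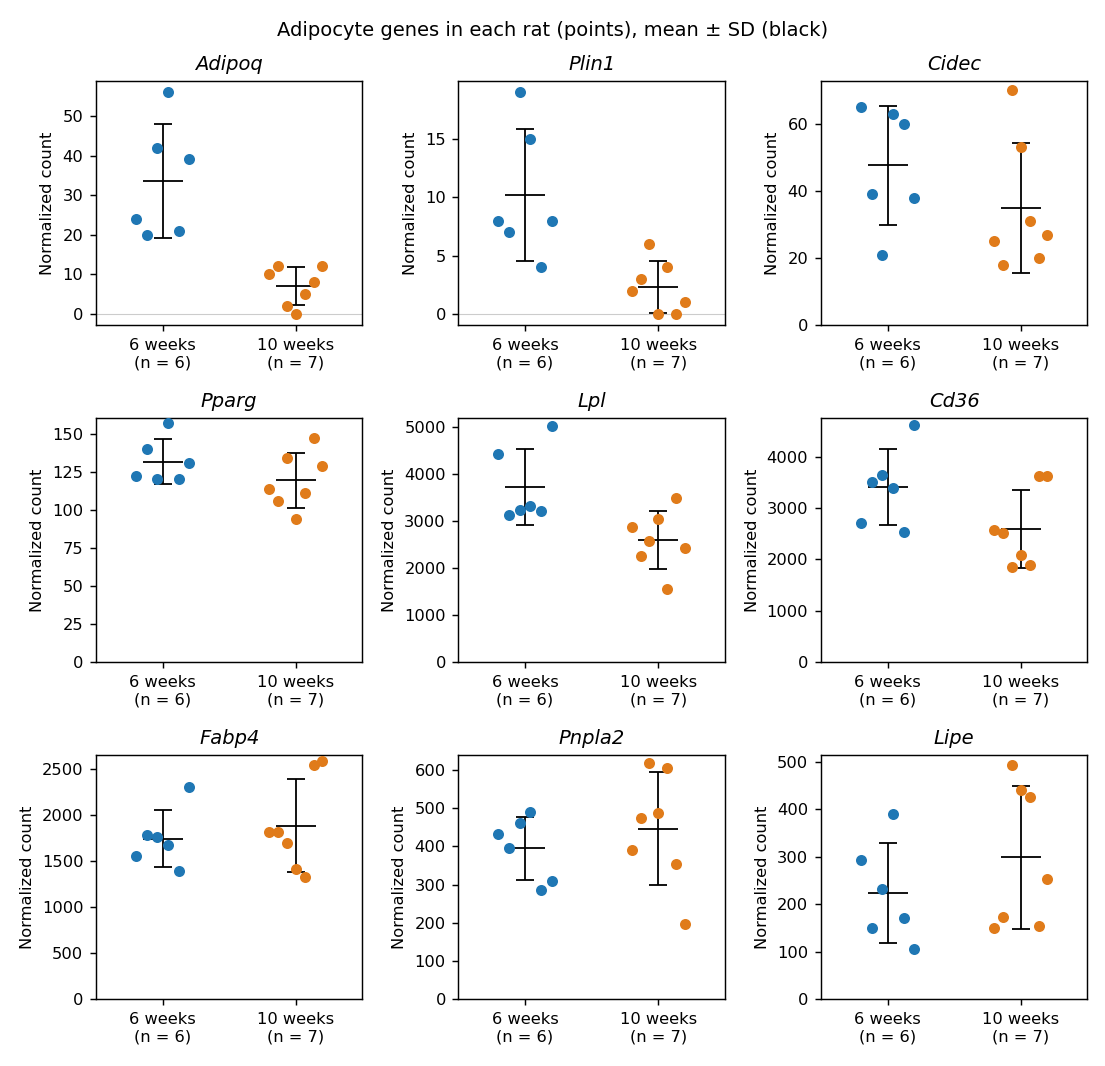
Normalized counts of the 9 adipocyte genes in each rat, with 1 panel per gene and an axis of its own that includes 0. Points are rats (6 at 6 weeks in blue, 7 at 10 weeks in orange), with the mean and SD of each age in black. *Adipoq* is the gene whose ages do not overlap, and the other 8 panels overlap.

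The stretch before the start of both called genes is shown because both genes were higher at 6 weeks. The sequences are the 250 bases before the start in the RefSeq annotation of GRCr8, in the direction of the gene, with CCAAT boxes and C/EBP cores in capitals on either strand.
*Adipoq* promoter, chr11:91240170-91240419, minus strand: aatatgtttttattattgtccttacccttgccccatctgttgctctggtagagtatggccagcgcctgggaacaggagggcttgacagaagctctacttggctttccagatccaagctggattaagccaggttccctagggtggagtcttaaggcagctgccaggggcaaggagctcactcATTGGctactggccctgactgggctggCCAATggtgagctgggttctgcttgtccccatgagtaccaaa
*Plin1* promoter, chr1:143086149-143086398, minus strand: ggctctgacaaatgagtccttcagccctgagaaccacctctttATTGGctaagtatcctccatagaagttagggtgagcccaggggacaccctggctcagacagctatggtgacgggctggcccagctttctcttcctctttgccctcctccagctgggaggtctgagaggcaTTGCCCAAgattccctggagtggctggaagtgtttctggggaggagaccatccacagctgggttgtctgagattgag
That of *Adipoq* holds CCAAT at 42 bases before the start and its reverse complement ATTGG at 69 bases. In the *Plin1* promoter ATTGG lies 207 bases before the start and a C/EBP core, TTGCCCAA, lies 77 bases before it. CCAAT occurred in 34% of 33469 promoters of this length and the C/EBP core, searched as TTNNGCAA on both strands, in 9.22%. RefSeq promoters were at hand for 6 of the 9 genes. The C/EBP core was also matched before *Cidec* and *Pparg*. The PPAR response element, searched as 2 copies of AGGTCA with 1 base between them, was matched before none of the 6 genes, and in 0.0508% of all promoters. A match is a run of letters and not a site shown to be bound.

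*Adipoq* encodes adiponectin, a hormone secreted by fat cells. At 6 weeks the normalized counts of *Adipoq* were 20 in the lowest rat, 31.5 at the median and 56 in the highest. At 10 weeks they were 0, 8 and 12. Every rat within WOS lay above every rat outside WOS, and *Adipoq* was the 1 of the 9 genes without overlap. Over all genes 6.07% showed no overlap, 3.29% with 6 weeks above and 2.78% with 6 weeks below. The mean was 33.7 ± 14.4 (SD, n = 6) at 6 weeks and 7.00 ± 4.80 (SD, n = 7) at 10 weeks, a 4.81-fold ratio of means. The log2 fold change was 2.41 (SE 0.56, 95% interval 1.21 to 3.62, limma, adjusted p = 0.0130). An exact permutation test over the rats, two-sided, gave p = 0.00117, the smallest that the splits of 6 and 7 rats can give. In each of the 13 fits that left out 1 rat, *Adipoq* was called, with a log2 fold change between 1.98 and 2.60.

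*Plin1* encodes perilipin-1, the coat of the fat cell's droplet, which holds lipases off the stored fat until a hormone calls for it. The normalized counts of *Plin1* were 4, 8 and 19 at 6 weeks (lowest, median and highest rat) and 0, 2 and 6 at 10 weeks. The ages overlapped, although 5 of the 6 rats within WOS lay above all rats outside WOS. The mean fell from 10.2 ± 5.64 (SD, n = 6) to 2.29 ± 2.21 (SD, n = 7), a 4.45-fold ratio of means. Its log2 fold change was 1.94 (SE 0.49, 95% interval 0.89 to 3.00, limma, adjusted p = 0.0188). The exact permutation test gave p = 0.0035 for *Plin1*, and the call was made in all 13 fits with a rat left out.

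Few reads stand behind both genes. In 7 of the 13 rats the spacing of low values showed the factor by which reads had been multiplied, so reads could be read back. In rats 75 and 80, at 6 weeks, 28 and 29 reads stood behind *Adipoq*, and 13 and 8 behind *Plin1*. At 10 weeks the *Adipoq* reads were 9 in rat 72, 9 in rat 74, 1 in rat 78, 0 in rat 81 and 11 in rat 87. With a pseudocount of 0.1 in place of 1 the log2 fold changes grew to 3.02 and 3.06, but both calls were lost (limma, adjusted p = 0.0537 for *Adipoq* and 0.0533 for *Plin1*). Neither gene had 10 normalized counts in every rat, so a minimum of that kind left both untested.

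The rats were also split into sets that no label names. A principal component analysis of the variation within ages, run without the 9 genes, put 28.3% of it on its first component. The largest gap of that component lay between 5 rats (75 and 80 at 6 weeks, 78, 81 and 83 at 10 weeks) and the other 8, 4 of each age. The rats were cut at that gap, and whether they form groups was not tested. In the smaller set, rats 75, 80, 78 and 81 had scaling factors of 1.49, 1.92, 2.06 and 1.28. In the larger set, rats 72, 74 and 87 had 1.14, 1.36 and 1.13, and no factor was read for the remaining rats. A link between the sets and these factors was not tested. In the larger set alone the log2 fold change of *Adipoq* was 1.20 (limma, adjusted p = 0.0121) and in the smaller set alone 4.24 (adjusted p = 0.224), where limma called 0 of 14790 genes, 1993 having an unadjusted p under 0.05. For *Plin1* the values were 1.77 (adjusted p = 0.0234) and 2.45 (adjusted p = 0.371). Both genes were higher at 6 weeks in either set, and whether the size of the change differed between the sets was not tested.

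*Cidec*, whose protein fuses small lipid droplets into a large one, did not pass the test. Its normalized counts were 21, 49.5 and 65 at 6 weeks (lowest, median, highest) and 18, 27 and 70 at 10 weeks. The ages overlapped over nearly their whole range. Its log2 fold change was 0.50 (SE 0.34, 95% interval -0.24 to 1.24, limma, adjusted p = 0.341). Among the 8 rats of the larger set *Cidec* had a log2 fold change of 1.11 (limma, adjusted p = 0.0137), against -0.41 (adjusted p = 0.788) in the smaller set. Within a rat, the log2 ratio of *Adipoq* to *Cidec* was 1.91 higher at 6 weeks than at 10 weeks, a description of a pair chosen after values were seen.

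*Pparg*, the receptor that drives fat cell differentiation, had 120, 126.5 and 157 normalized counts at 6 weeks (lowest, median, highest rat) and 94, 114 and 147 at 10 weeks. All 6 rats within WOS lay above the median of the rats outside WOS, but 1 of them lay above all of those. Its log2 fold change of 0.15 (SE 0.12, 95% interval -0.11 to 0.41) did not pass the test (limma, adjusted p = 0.421). The interval is the narrowest of the 9 genes and lies wholly below that of *Adipoq*.

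The 3 genes of fatty acid supply gave no call. *Lpl*, the lipase that acts on lipoproteins at the capillary wall, had 3126, 3282.5 and 5018 normalized counts at 6 weeks and 1551, 2588 and 3483 at 10 weeks (lowest, median, highest). All 6 rats within WOS lay above the median outside WOS and 2 lay above all rats outside WOS. The mean of *Lpl* was 3726 ± 799 (SD, n = 6) against 2607 ± 620 (SD, n = 7), and its log2 fold change was 0.53 (SE 0.19, 95% interval 0.13 to 0.93). The adjusted p was 0.0704 with limma and the exact permutation test, which is not adjusted over genes, gave p = 0.0105. *Lpl* passed the threshold with library size scaling (limma, adjusted p = 0.0487), without the most abundant gene in the library size (0.0364), with limma-trend (0.0428), with sample quality weights (0.0485) and without rat 85 (0.0453). Both library size scalings also raised the share of all calls that were higher at 6 weeks, to 62.7% and 73.8%. *Lpl* did not pass with median-ratio scaling (0.0782), upper quartile scaling (0.0729) or the first component as a term (0.0577). Nor did it pass in the larger set alone (0.104). Of the 13 fits with a rat left out, 1 called it, the adjusted p running from 0.0453 to 0.151.

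*Cd36* encodes a fatty acid carrier of the cell surface. Its normalized counts were 2538, 3450 and 4607 at 6 weeks and 1850, 2522 and 3628 at 10 weeks (lowest, median, highest rat). The log2 fold change was 0.41 (SE 0.20, 95% interval -0.017 to 0.84, limma, adjusted p = 0.174). Within the larger set alone *Cd36* had a value of 0.098 and within the smaller 0.86, and it passed in neither.

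*Fabp4*, a carrier of fatty acids in the cytosol, had 1389, 1717.5 and 2302 normalized counts at 6 weeks and 1333, 1818 and 2588 at 10 weeks (lowest, median, highest rat). The ages lay over each other, with a log2 fold change of -0.09 (SE 0.18, 95% interval -0.47 to 0.29, limma, adjusted p = 0.764). The log2 ratio of *Adipoq* to *Fabp4* in the same rat was 2.50 higher at 6 weeks, a description with no test, since the pair was chosen after the values of both were seen.

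The 2 lipases gave estimates below 0. *Pnpla2* encodes the lipase that opens the breakdown of stored triglyceride, and *Lipe* encodes hormone-sensitive lipase, which takes the next step. *Pnpla2* had 286, 414.5 and 489 normalized counts at 6 weeks and 197, 474 and 617 at 10 weeks (lowest, median, highest rat), with a log2 fold change of -0.12 (SE 0.25, 95% interval -0.65 to 0.42, limma, adjusted p = 0.778). The counts of *Lipe* were 105, 202 and 391 at 6 weeks and 150, 253 and 494 at 10 weeks, with a log2 fold change of -0.38 (SE 0.38, 95% interval -1.19 to 0.43, adjusted p = 0.519). *Lipe* also varied with the unlabelled sets. It ran from 233 to 494 in the smaller set and from 105 to 294 in the larger, and its r with the first component was 0.92 over the 13 rats, given as a description. The component was built without *Lipe*.

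**Figure D2:**
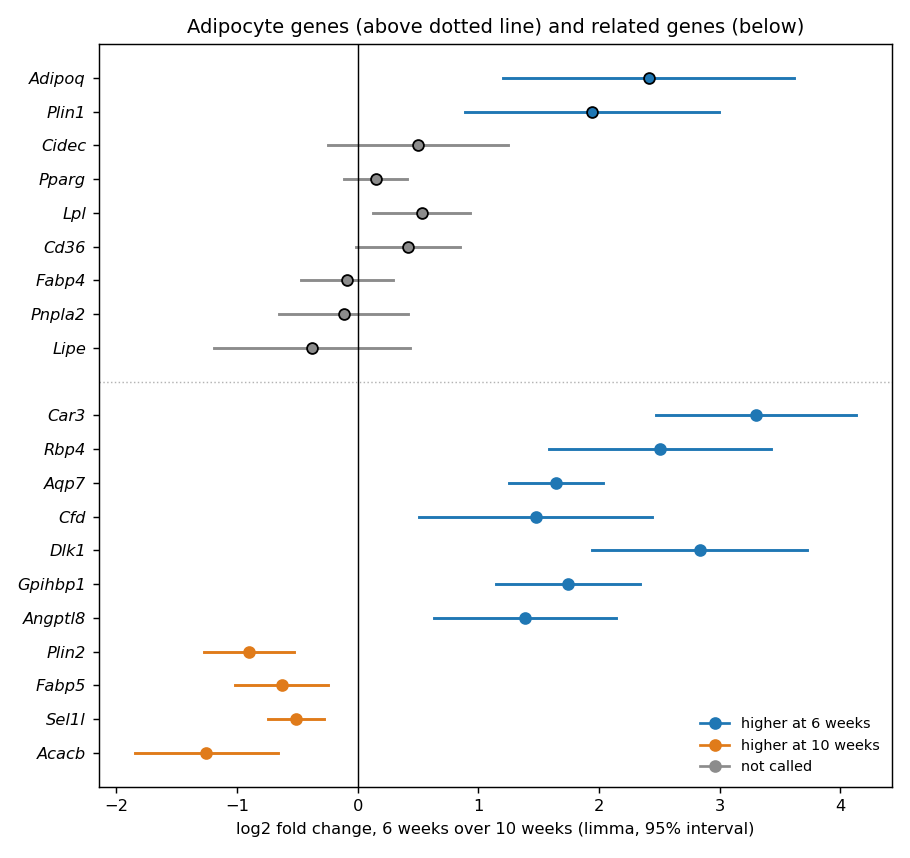
Log2 fold change of 6 weeks over 10 weeks with its 95% interval (limma, 6 and 7 rats), for the 9 adipocyte genes above the dotted line and 11 related genes below it, all 11 being called. Blue marks higher at 6 weeks, orange higher at 10 weeks and grey not called. *Adipoq* and *Plin1* are the 2 adipocyte genes drawn in blue, their intervals overlap that of *Cidec*, and *Car3* has the highest value drawn, 3.30.

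Other markers of fat cells were then read from the same fit. Of 18 such markers, 12 were in the table, and 4 of the 12 were higher at 6 weeks, 0 at 10 weeks, with a median log2 fold change of 0.37. *Car3*, carbonic anhydrase 3, had 58 to 165 normalized counts at 6 weeks and 5 to 33 at 10 weeks, with a log2 fold change of 3.30 (limma, adjusted p = 0.000218). *Rbp4*, which carries retinol, had 10 to 39 and 0 to 5, with 2.50 (adjusted p = 0.00225). *Aqp7*, the channel through which fat cells release glycerol, had 19 to 37 and 5 to 10, with 1.64 (adjusted p = 0.000182). For *Car3*, *Rbp4* and *Aqp7*, as for *Adipoq*, the ages did not overlap. *Cfd*, the protease adipsin, was the fourth, with 42 to 159 and 7 to 58 normalized counts and a log2 fold change of 1.48 (adjusted p = 0.0415). *Thrsp*, among the 8 markers not called, had 76 to 321 and 54 to 518 normalized counts and a log2 fold change of 0.37 (adjusted p = 0.635). The markers not called lay on both sides of 0, with log2 fold changes from -0.99 to 0.54. The lowest of them was *Acvr1c*, with 7 to 42 normalized counts at 6 weeks and 35 to 88 at 10 weeks. Its 95% interval was -1.76 to -0.22 (limma, adjusted p = 0.0747). *Lep*, *Retn*, *Adig*, *Adrb3*, *Pck1* and *Mrap* were not analysed here.

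Among 26 regulators of fat cell formation, 1 was higher at 6 weeks and 2 were higher at 10 weeks (median log2 fold change 0.065). The 1 was *Dlk1*, known as a marker of the precursors of fat cells and lost as they mature, with 24 to 40 normalized counts at 6 weeks and 1 to 12 at 10 weeks (log2 fold change 2.84, limma, adjusted p = 0.000839). *Ncor1* and *Nrip1*, corepressors of nuclear receptors, were higher at 10 weeks, with log2 fold changes of -0.36 and -0.43 (adjusted p = 0.0299 and 0.0288). *Klf5*, among the regulators not called, had -0.25 (adjusted p = 0.138).

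The genes that handle lipoprotein lipase moved in both directions, 3 of 12 higher at 6 weeks and 2 of 12 higher at 10 weeks (median log2 fold change 0.43). *Gpihbp1*, the endothelial protein that anchors the lipase, ran from 113 to 173 normalized counts at 6 weeks and from 15 to 68 at 10 weeks, without overlap (log2 fold change 1.74, limma, adjusted p = 0.00142). *Angptl8*, a secreted factor that acts on the lipase's inhibitors, had a log2 fold change of 1.39 (adjusted p = 0.0189). *Sel1l*, which helps the lipase mature in the endoplasmic reticulum, was lower at 6 weeks, with -0.51 (adjusted p = 0.00737). The anchor was called, then, while *Lpl* itself was not.

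*Plin2* and *Fabp5*, relatives of *Plin1* and *Fabp4*, were called higher at 10 weeks. The other relatives in the lists were called in neither direction, with log2 fold changes from -0.13 to 1.03. *Plin2*, the droplet coat of secretory epithelium and most other cells, had 6191 to 9097 normalized counts at 6 weeks and 10674 to 21069 at 10 weeks, without overlap (log2 fold change -0.90, limma, adjusted p = 0.00492). The log2 ratio of *Plin1* to *Plin2* in the same rat was 2.84 higher at 6 weeks, a description with no test, since each gene's own call already sets its direction. *Fabp5*, the epidermal relative of *Fabp4*, was higher at 10 weeks, with a log2 fold change of -0.63 (limma, adjusted p = 0.032). The log2 ratio of *Fabp4* to *Fabp5* was 0.54 higher at 6 weeks, also given as a description.

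Regulators and partners of the lipases, which include *Plin2*, gave 2 of 11 higher at 6 weeks and 1 of 11 higher at 10 weeks (median 0.24). The 2 were *Mgll* and *Aqp7*, and *Aqp7* was already counted among the fat cell markers above. *Mgll*, the lipase of monoglycerides that ends the chain, had a log2 fold change of 0.48 (limma, adjusted p = 0.0334), while *Abhd5*, the activator of the *Pnpla2* product, had 0.003 (adjusted p = 0.988, 95% interval -0.28 to 0.29). Of 11 other genes of fatty acid uptake and binding, 0 were higher at 6 weeks and 1, *Fabp5*, was higher at 10 weeks (median 0.30). Triglyceride synthesis and droplet genes gave 1 of 14 and 2 of 14 (median 0.039): *Gpat3*, an acyltransferase, had 0.59 (adjusted p = 0.0148), and the phosphatidate phosphatases *Lpin1* and *Lpin2* had -0.78 and -0.33 (adjusted p = 0.0221 and 0.0393).

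In fatty acid synthesis 1 of 10 genes was higher at 6 weeks and 2 of 10 were higher at 10 weeks (median 0.15). The desaturase *Scd* had a log2 fold change of 0.88 (limma, adjusted p = 0.0431), and *Acacb*, an acetyl-CoA carboxylase, had -1.26 (adjusted p = 0.00958), whereas *Fasn*, fatty acid synthase, had -0.11 (adjusted p = 0.754). Insulin response genes gave 0 of 11 and 2 of 11 (median -0.18), with *Insr*, the insulin receptor, at -0.43 (adjusted p = 0.0138). Of 6 brown and beige fat genes, *Tmem26* was called, at 1.45 (adjusted p = 0.0183), and *Ucp1* and *Cidea* were not analysed here.

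**Figure D3:**
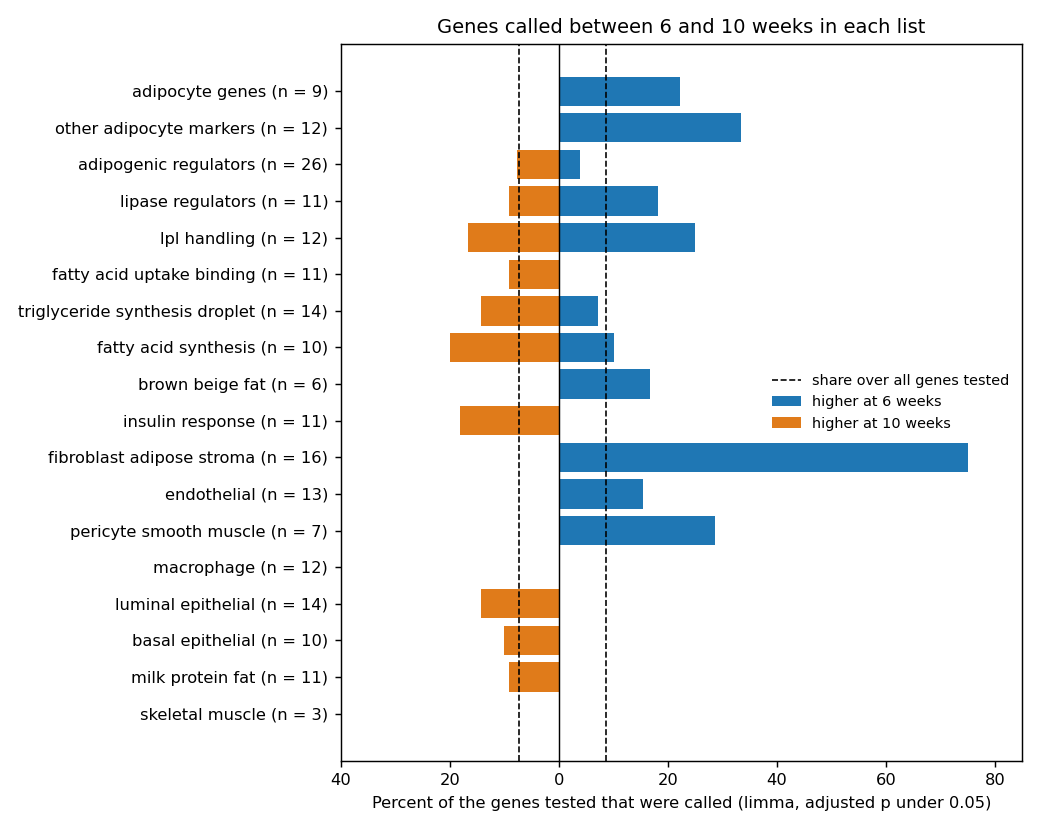
Percent of the tested genes of each list that were called higher at 6 weeks (blue, to the right) or higher at 10 weeks (orange, to the left) with limma, with dashed lines at the shares over all genes tested, 8.71% and 7.39%. The fibroblast and adipose stroma list has the longest bar, 12 of 16 genes, and the 9 adipocyte genes have 2 of 9.

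Markers of some other cells were also called higher at 6 weeks. Of 16 markers of fibroblasts and adipose stroma, 12 were higher at 6 weeks and 0 at 10 weeks (median log2 fold change 1.13). Their summed normalized count was 141014 to 284615 at 6 weeks and 31467 to 74941 at 10 weeks, without overlap, and 0 of the 16 had a rat at 0. *Fn1*, fibronectin, had a log2 fold change of 1.93 (limma, adjusted p = 0.000113). With the age means removed, the mean of this list had r = 0.031 with *Adipoq* and -0.038 with *Plin1* over the 13 rats. Neither passed (permutation p adjusted over 63 relations of gene and list, 0.958 for both). Within 6 weeks these r were 0.833 and 0.762, and within 10 weeks -0.252 and -0.471. Pericyte and smooth muscle markers gave 2 of 7 higher at 6 weeks, with sums of 3706 to 5971 and 2137 to 3674. Their part in the result was not tested.

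Endothelial markers gave 2 of 13 higher at 6 weeks, *Gpihbp1* and *Cldn5*, with overlapping sums of 10593 to 17477 at 6 weeks and 10556 to 16285 at 10 weeks. Macrophage markers gave 0 of 12 in either direction, with sums of 1774 to 3238 and 1690 to 3131. Luminal epithelial markers gave 2 of 14 higher at 10 weeks and basal markers 1 of 10, and their sums overlapped. Milk genes gave 1 of 11 higher at 10 weeks, with sums of 18117 to 70769 and 18569 to 259310, and skeletal muscle markers 0 of 3. Luminal markers were present in every library, with summed counts from 32158 to 71783. Sums of different lists are not compared, so they do not give the share of epithelium in a library.

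Whether the 9 genes rise and fall together was asked between rats. Over the 13 rats and against *Adipoq*, *Plin1* had a Pearson r of 0.703 (permutation p adjusted over 8 genes, 0.0283) and a Spearman rho of 0.779 (adjusted 0.0186). Without rats 81 and 80, the farthest from the median of *Adipoq*, r was 0.474. Within 6 weeks r was 0.807 and within 10 weeks 0.196. The pooled values hold the difference between the ages, for which both genes were called, and with the age means removed r was 0.309. *Cd36* had r = 0.721 with *Adipoq* (permutation p adjusted, 0.0283) and rho = 0.644 (adjusted 0.0779), and its r was 0.731 without those rats, 0.539 within 6 weeks and 0.620 within 10 weeks. With the age means removed r of *Cd36* with *Adipoq* was 0.586, which did not pass (permutation p adjusted over the 36 pairs of the 9 genes, 0.117). The other 6 genes did not pass with either measure.

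**Figure D4:**
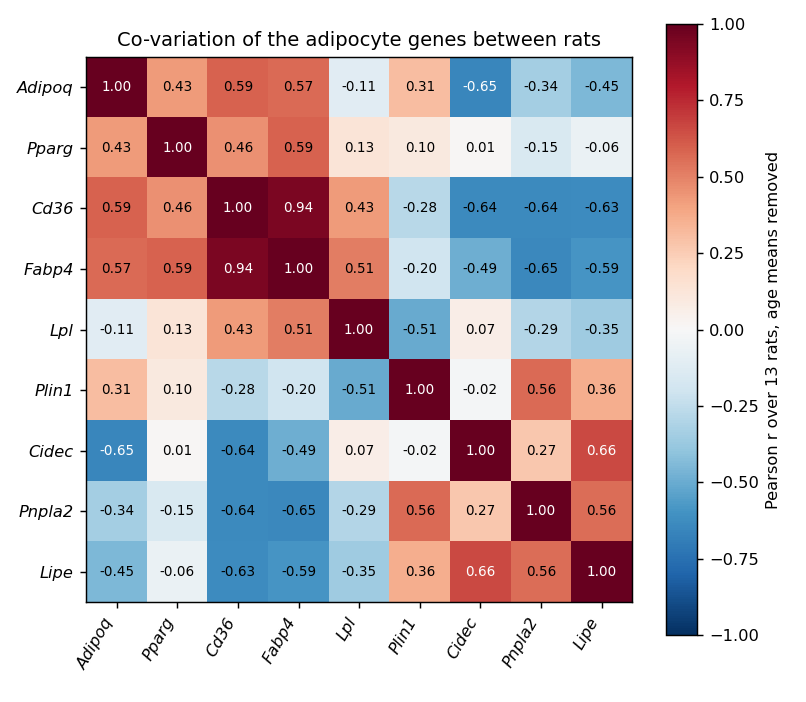
Pearson r of log2(normalized count + 1) between the 9 adipocyte genes over 13 rats, with age means removed, from -1 (blue) to 1 (red). *Cd36* and *Fabp4* stand out at 0.94, while of the 36 pairs 18 are above 0 and 18 below.

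With the mean of each age removed, 36 pairs of the 9 genes could be set against each other. Of the 36, 1 pair passed a permutation test adjusted over them, *Cd36* with *Fabp4*. Their Pearson r was 0.943 (permutation p = 2e-05, adjusted 0.00072) and their Spearman rho 0.908 (p = 5e-05, adjusted 0.0018). It held without the 2 rats farthest from the median of *Cd36* (r = 0.893), within 6 weeks (r = 0.968, exact permutation p = 0.00278) and within 10 weeks (r = 0.935, exact permutation p = 0.00714). The next highest r, 0.660, was that of *Cidec* with *Lipe*, and the lowest, -0.653, that of *Adipoq* with *Cidec*. Neither passed the adjustment. 

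The genes most like *Adipoq* between rats, among non-members with a mean of at least 100, were *Pogk* (r = 0.923), *U2surp*, *Atp2b1* and *Lepr* (r = 0.908), over 13 rats with the age means removed. That ranking was not tested and no rat was left out of it, although *Adipoq* was at 0 in rat 81. For *Cd36* they were *Prex2* (0.967) and *Emcn* (0.953), and for *Fabp4* *Apold1* (0.964), *Prex2* (0.950) and *Emcn* (0.924), profiles that were drawn up after the data were seen. *Emcn* is on the endothelial list, and so is *Tek*, which had r = 0.940 with *Cd36*. The mean of the whole list had r = 0.478 and rho = 0.451 with *Cd36* (permutation p adjusted over 63 relations of gene and list, 0.369 and 0.393) and r = 0.472 with *Fabp4* (adjusted 0.369). The epithelial lists lay farther from 0, below it. *Cd36* had r = -0.704 with the luminal and -0.585 with the basal list (permutation p adjusted, 0.121 and 0.233). *Fabp4* had -0.635 and -0.636 (adjusted 0.192 for both). None of the 63 relations passed. For *Cd36* the r with the endothelial list was 0.680 within 6 weeks, 0.346 within 10 weeks, 0.454 without the 2 rats farthest from the list's median and 0.854 in the larger set of 8 rats. For *Fabp4* these values were 0.518, 0.474, 0.448 and 0.878, all given as descriptions. For *Lipe* the nearest genes were *Mafg* and *Hspa1b* (0.970).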

How the data were processed

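RNA-seq libraries of mammary epithelial cells from 13 Wistar-Furth rats were compared, 6 at 6 weeks and 7 at 10 weeks, grouped by the titles of the samples. The authors obtained gene counts with RSEM 1.2.22, scaled them library by library and rounded them, so the deposited values are treated as a score, called a normalized count here. The processing notes name the build rn5, and the annotation is not given in the sources used here. The deposited table also holds the authors' EdgeR comparison (log2 fold changes, log2 mean abundances, a likelihood ratio score, p-values, their −log10 with and without a sign, and false discovery rates), none of which was used. All 13 per-rat columns were used. Totals per rat ran from 13261906 to 15659533, of which 1 gene took 14.3% to 27.9%, and in 7 rats some whole numbers from 1 to 30 never occurred, as after scaling by a factor above 1. These were 2 of the 6 rats at 6 weeks and 5 of the 7 rats at 10 weeks, so the ages were not balanced in this. The reads behind a value differ between rats, so precision at low counts does too, and no counting interval was given.

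The ages were compared by linear models on log2(normalized count + 1) with limma 3.58.1 (R 4.3.3), two-sided, over the 14790 genes, all of which had a mean of 1 or more, without covariates, with Benjamini-Hochberg adjustment over all genes and a threshold of 0.05. On simulated data of 14790 genes the test recovered 65 of 100 genes changed by 1 on the log2 scale, 90 of 100 changed by 2, and called 8 of 14590 unchanged genes. Changes were placed only in genes with a mean above that of *Adipoq* or *Plin1*, so the rates do not cover either gene. The simulated libraries had no scaling factors and no sets of rats. Single genes were also tested by exact permutation over the rats, and correlations by permutation with 100000 resamples, with Python 3.11.15 (scipy 1.17.1, pandas 2.3.3, numpy 2.4.6). Nothing says more of how the rats of an age relate, and p-values measure the spread between them.

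The 9 genes and all lists were chosen with earlier results of these data known. Named were the 9 genes and, from each list, up to 3 called genes with the lowest adjusted p and the gene not called with the highest mean normalized count, which also grows with transcript length. The genes named as most like *Adipoq* had the highest r among genes with a mean of at least 100. *Cfd*, *Cldn5*, the ratios, the 36 pairs, the relations with lists and the profiles of genes other than *Adipoq* were chosen after values were seen. *Trarg1* was matched under its older symbol *Tusc5*, and markers not found by symbol were not analysed here. Promoters came from RefSeq on GRCr8 and were matched by symbol. Alternatives were other scalings, pseudocount 0.1, no minimum or 10 counts in every rat, limma-trend, sample quality weights, each rat left out, the first residual component as a term, and each set of rats alone.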

Additional observations from a re-analysis of the deposited data

Results flagged for a closer look

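The highest or lowest rat stood apart from the other rats of its age by Dixon's test in 11 of 114 groups tested, over the genes named and both ages, and chance flags about 1 in 20 groups. None of the 18 groups of the 9 adipocyte genes was among them. Of the 11, 6 were rat 81 at 10 weeks. Its values were 518 normalized counts for *Thrsp* (next rat 153), 987 for *Gpat4* (lowest, next 1174), 62 for *Tmem26* (next 27), 2012 for *Cd14* (next 1111), 8019 for *Myh11* (lowest, next 11763) and 153585 for the casein *Csn1s1* (next 24922). In the same rat *Adipoq* and *Plin1* were at 0, and leaving the rat out kept both called. The other values that stood apart were 39 for *Rbp4* in rat 75 (next 20), 9161 for *Nrip1* in rat 71 (next 7407), 2424 for *Fasn* in rat 86 (lowest, next 4067), 1529 for *Lpin2* in rat 74 (next 1258) and 188 for *Cpt1b* in rat 78 (next 91).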

How the results depend on the processing

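Of the 9 adipocyte genes, 2 were called higher at 6 weeks, and leaving out 1 rat in turn gave 2 to 3. The number was 0 with a pseudocount of 0.1, 0 with a minimum of 10 in every rat (which left *Adipoq* and *Plin1* untested), 0 in the smaller set of rats alone and 4 with sample quality weights, which added *Cidec* and *Lpl*. No alternative called any of the 9 higher at 10 weeks. Over all genes 2381 were called, 5647 with sample quality weights, 0 in the smaller set alone and 1411 to 2680 with a rat left out (1411 without rat 70, 1488 without rat 84 and 1558 without rat 87). Library size scaling without the most abundant gene moved the share of calls that were higher at 6 weeks from 54.1% to 73.8% and the median of all genes from 0.028 to 0.12. The sign turned for *Pnpla2* in the larger set (0.057) and with sample quality weights (0.092), and in the smaller set for *Cidec* (-0.41) and *Fabp4* (0.22); none of these passed the test. The causes were not tested. The fibroblast list gave 11 to 13 genes higher at 6 weeks with a rat left out. No paired analysis was possible because no rat number occurs at both ages. Where reads could be read back, 0 to 29 stood behind *Adipoq* and 0 to 13 behind *Plin1*, which limits the precision of both.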
